A study of Mus musculus with 9 samples.

Results

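The genes described here are 34 genes of the brain endothelium and the blood-brain barrier, out of 55421 genes counted in mouse hippocampus. They were chosen by symbol, as genes of endothelial identity, of cell junctions and of transport across the barrier, by a rule that uses no measured value, although the list was drawn up with earlier results of these data known. They fall into 6 roles: 6 junction genes, 8 transporters, 7 receptors and their partners, 7 surface or secreted proteins, 3 genes of activation or fenestration, and 3 transcription factors. The study used 9 RNA-seq libraries in 3 groups of 3. The first group, CKO mTBI, held Tmsb4x Conditional Knockout mice given a single mild controlled cortical impact, a model of mild traumatic brain injury (mTBI). The second, WT mTBI, held wild-type mice given the same impact. The last, WT sham, held wild-type mice that had the surgery without the impact. All mice carried tdTomato in their neurons, and after saline perfusion the hippocampus was dissociated with trypsin, passed through a 40-µm strainer and sorted for tdTomato-positive cells. The labels do not give the sex, the age, the time after injury, the part of Tmsb4x that was deleted or the Cre driver, and there was no knockout sham group, so the knockout was compared among injured mice alone.

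Brain capillaries differ from those of most organs. Their endothelial cells are sealed to each other by tight junctions, carry few vesicles and fenestrae, and move nutrients by dedicated transporters while pumps return many drugs to the blood. Wnt signals from neurons and glia, together with pericytes and astrocyte endfeet, keep the endothelium in this state. Endothelial cells are not neurons, and the tdTomato sort was set up to leave them out. Several of the genes, Bsg, Tjp1 and Slc7a5 among them, are also expressed by other brain cells, so their levels here need not be endothelial.

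The libraries held 36452443 to 39590872 counts and 25981 to 26857 genes with at least 1 count, and 20032 genes passed the low-count filter. The targeted gene went against a label. Tmsb4x had 1.83, 2.79 and 2.77 counts per 1000000 counts (CPM) in CKO mTBI and 900, 553 and 297 CPM in WT mTBI, but also 2.73, 1.68 and 2.23 CPM in the libraries labelled WT sham. Comparisons with those 3 libraries are therefore given as comparisons with libraries labelled sham. Their spread was also small: the biological coefficient of variation was 3.27% among them, against 18.7% in CKO mTBI and 19.6% in WT mTBI. Xist stood at 835 CPM in WT mTBI replicate 3 and at most at 0.892 CPM in the other 8 libraries, so the sexes were not balanced. Choroid plexus genes differed between libraries: 13 markers summed to 82.1, 3905 and 3121 CPM in CKO mTBI, to 3303, 4574 and 4608 CPM in WT mTBI, and to 69.9, 71.96 and 72.8 CPM in the libraries labelled sham.

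All 34 genes were detected in every library and all passed the filter, with mean counts per library between 64.4 for Foxq1 and 15116 for Bsg. The label was checked with 11 endothelial markers, themselves among the 34 genes. Their summed level was 325, 332 and 304 CPM in CKO mTBI, 236, 268 and 340 CPM in WT mTBI, and 283, 295 and 291 CPM in the libraries labelled sham. The WT mTBI libraries enclosed all the others, every CKO mTBI library lay above every library labelled sham, and no endothelial marker was absent. Markers of other cells that the suspension could hold were also present in every library: 8 neuronal genes, led by Camk2a and Snap25, summed to between 9714 and 11839 CPM, 8 astrocyte genes, led by Slc1a2 and Aldoc, to between 4098 and 5209 CPM, and 13 mural cell genes to between 225 and 321 CPM. In bulk RNA, fewer cells of a type and less RNA per cell cannot be told apart.

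Per length, in length-corrected units (TPM) over the 9 libraries, the order of the levels was led by Bsg at 829 ± 97.2 TPM (SD, n = 9), which ranked 101 among all genes. Bsg encodes basigin, a membrane glycoprotein that escorts lactate transporters to the cell surface and is not restricted to endothelium. The next genes lay far below it and close together: Itm2a, which encodes an integral membrane protein, at 99.6 ± 17.4 TPM, and Slc2a1, the glucose transporter GLUT1, at 89.5 ± 15.9 TPM. These SDs overlapped. Ly6c1, a surface antigen of brain endothelium in mice, had a level of 68.0 ± 11.6 TPM, and Slc7a5, the large neutral amino acid transporter, 65.7 ± 7.40 TPM. Cldn5, the main claudin of brain endothelial tight junctions, was at 55.2 ± 6.44 TPM and Tjp1, the junction scaffold ZO-1, at 54.3 ± 7.83 TPM. At the low end stood the transcription factor genes Sox17 at 4.41 ± 0.81 TPM and Foxq1 at 1.33 ± 0.33 TPM, with Emcn, the sialomucin endomucin, between them at 4.20 ± 0.59 TPM.

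**Figure D1:**
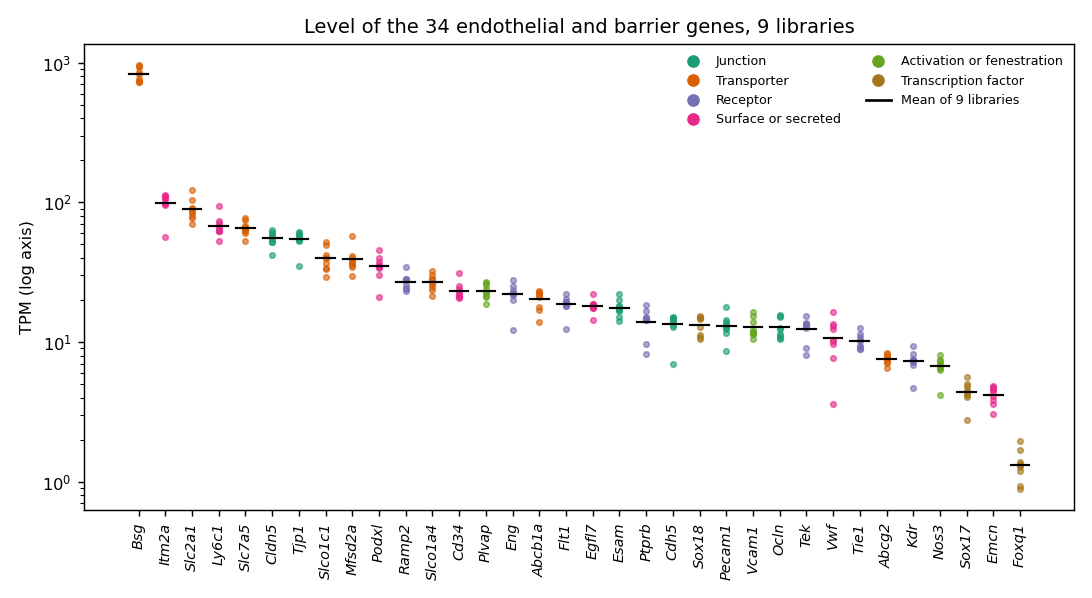
Level of each of the 34 genes in TPM (log axis), with 1 point per library coloured by the role of the gene and genes ordered by their mean. Bsg, at a mean of 829 TPM, lies apart from the other 33 genes, and Foxq1 is at the low end with a mean of 1.33 TPM.

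Promoter letters are shown for a few genes, because endothelial genes are known to be bound by ETS factors and brain endothelial genes to respond to Wnt and to SOX factors. RefSeq promoters (build GRCm38.p6) matched 19 of the 34 genes by symbol, and the 250 bases before the RefSeq start were searched on both strands. An ETS motif, CGGAAG or AGGAAG, was in 12 of the 19 promoters (63.2%), against 39.0% of 27025 promoters of the same length. The SOX motif ACAATG was in 2 of the 19 (10.5%) and in 2969 of all 27025 promoters. The TCF/LEF motif CTTTGA, read by the Wnt pathway, was in 15.8% of the 19 and in 14.0% of all. The hypoxia motif ACGTG was in 10.5% of the 19 and in 16.6% of all. A match describes letters and not a bound site, and no match says only that those letters are not in the window. Slco1c1 and Slc2a1 are shown because the results turn on them, Flt1 and Eng because each held 2 ETS matches, and Cldn5 because it held none. Capitals mark an ETS motif (CTTCCT is AGGAAG read on the other strand), except in Slc2a1, where they mark ACGTG. No matches overlapped.
Slco1c1, chr6:141524104-141524353, plus strand: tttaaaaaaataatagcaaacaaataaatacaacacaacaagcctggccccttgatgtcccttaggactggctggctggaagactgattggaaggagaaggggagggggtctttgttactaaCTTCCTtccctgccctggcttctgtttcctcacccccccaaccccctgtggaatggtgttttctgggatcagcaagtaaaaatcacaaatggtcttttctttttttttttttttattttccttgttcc
Slc2a1, chr4:119108495-119108744, plus strand: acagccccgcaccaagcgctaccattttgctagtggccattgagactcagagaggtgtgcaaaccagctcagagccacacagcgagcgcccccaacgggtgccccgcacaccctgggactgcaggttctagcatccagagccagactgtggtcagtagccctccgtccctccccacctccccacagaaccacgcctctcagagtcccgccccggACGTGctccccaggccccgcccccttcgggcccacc
Flt1, chr5:147726012-147726261, minus strand: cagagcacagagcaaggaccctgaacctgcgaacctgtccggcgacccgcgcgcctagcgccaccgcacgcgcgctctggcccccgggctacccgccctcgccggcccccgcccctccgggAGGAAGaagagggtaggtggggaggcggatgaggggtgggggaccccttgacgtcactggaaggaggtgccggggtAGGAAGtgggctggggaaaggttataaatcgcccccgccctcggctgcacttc
Eng, chr2:32646345-32646594, plus strand: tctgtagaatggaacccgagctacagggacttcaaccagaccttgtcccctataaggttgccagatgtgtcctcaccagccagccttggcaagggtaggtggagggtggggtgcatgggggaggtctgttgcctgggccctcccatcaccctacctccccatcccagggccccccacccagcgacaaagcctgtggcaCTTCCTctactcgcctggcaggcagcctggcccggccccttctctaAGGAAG
Cldn5, chr16:18776597-18776846, plus strand: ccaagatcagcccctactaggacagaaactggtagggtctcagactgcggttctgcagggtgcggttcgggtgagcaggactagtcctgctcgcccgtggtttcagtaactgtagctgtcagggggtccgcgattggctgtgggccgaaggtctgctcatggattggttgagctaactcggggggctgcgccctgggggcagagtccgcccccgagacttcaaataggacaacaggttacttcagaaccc

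Injury in wild-type mice was read from WT mTBI against the libraries labelled sham, and "after injury" stands for this contrast as labelled. The 2 groups also differed in Tmsb4x, as given above, so that injury and the Tmsb4x level cannot be told apart in it, and whether labels were exchanged was not tested. Among the 34 genes, 1 passed the test, Bsg, which was higher (2.94%), where 0.384% of all 20032 tested genes were called higher and 0.509% were called in either direction (edgeR's quasi-likelihood test, Benjamini-Hochberg adjusted p under 0.05). The other 33 genes did not pass. In all, 18 of the 34 fold changes were positive and 16 negative, with a median log2 change of 0.00 (0.02 over all genes tested). At an unadjusted p under 0.05 there were 4 of 34 genes (11.8%, against 13.2% of all genes), namely Bsg, Slco1c1, Plvap and Slc2a1, each higher. For 7 genes every WT mTBI library lay above every library labelled sham (20.6%, against 12.4% of all genes), and for none did all lie below (11.5% of all genes). For each of the 34 genes the 95% interval of the fold change stayed within 2-fold, with bounds between -0.95 and 0.78 on the log2 scale.

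The transporters gave 6 positive and 2 negative changes, and 3 of the 7 genes that lay apart above sham were transporters. Bsg had 506, 438 and 435 CPM in WT mTBI, against 329, 349 and 336 CPM in the libraries labelled sham. The 2 groups did not overlap. Bsg was 1.36-fold higher in WT mTBI (log2 0.44, SE 0.08, adjusted p = 0.0490). The call was lost on leaving out CKO mTBI replicate 3 (adjusted p = 0.0797), WT mTBI replicate 2 (0.0638) or replicate 3 (0.102), or any of the 3 libraries labelled sham (0.244 to 0.296). It was also lost with RLE scaling (0.0511), a stricter count filter (0.0546), a replicate block or the 3 sham libraries summed to 1 sample. The log2 change of Bsg stayed between 0.37 and 0.47 under all 20 alternatives. Slco1c1, which encodes the thyroxine transporter OATP1C1, had 60.3, 66.5 and 68.2 CPM in WT mTBI, against 47.8, 44.6 and 43.5 CPM in the libraries labelled sham. Again the groups did not overlap. Its fold was 1.44 (log2 0.52, SE 0.12), with an adjusted p of 0.0852 that missed the threshold. Without CKO mTBI replicate 1, Slco1c1 passed (adjusted p = 0.00911).

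Slc2a1, the glucose transporter, had 88.4, 76.6 and 92.5 CPM in WT mTBI, against 61.5, 70.9 and 68.0 CPM in the libraries labelled sham, without overlap (log2 0.36, SE 0.13, adjusted p = 0.257). Slc7a5 was at 64.1 ± 6.94 CPM in WT mTBI and 58.1 ± 1.29 CPM in the libraries labelled sham (SD, n = 3 each), and the groups overlapped. Mfsd2a, the lysolipid transporter that carries docosahexaenoic acid into the brain, and Slco1a4, an organic anion transporter, overlapped as well, at log2 changes of 0.09 and 0.03. The efflux pumps had negative changes that did not pass. Abcb1a, which encodes P-glycoprotein, had 22.1, 25.6 and 31.5 CPM in WT mTBI, against 28.9, 31.2 and 29.2 CPM in the libraries labelled sham (log2 -0.17, SE 0.14, adjusted p = 0.614). Abcg2, the breast cancer resistance protein pump, was at 16.3 ± 1.87 CPM in WT mTBI and 16.6 ± 0.45 CPM in the libraries labelled sham.

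Choroid plexus markers were also higher in WT mTBI than in the libraries labelled sham. All 13 were positive in this comparison and 5 were called higher. Their abundant members were Ttr, the carrier transthyretin, with 2965, 4021 and 4113 CPM in WT mTBI against 17.5, 16.5 and 17.3 CPM in the libraries labelled sham, and Kl, with 103, 152 and 122 CPM against 23.1, 24.1 and 23.7 CPM. CKO mTBI replicate 1 was the injured library without high choroid plexus markers, at 82.1 CPM summed. In that library Bsg was at 342 CPM, inside the range of the libraries labelled sham, Slco1c1 was at 39.4 CPM, below all of them, and Slc2a1 was at 82.5 CPM, above all of them. Within WT mTBI, replicate 1 had the lowest summed choroid plexus level, at 3303 CPM, with the highest Bsg, 506 CPM, and the lowest Slco1c1, 60.3 CPM. The part of choroid plexus RNA in the values of Bsg and Slco1c1 was not tested.

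**Figure D2:**
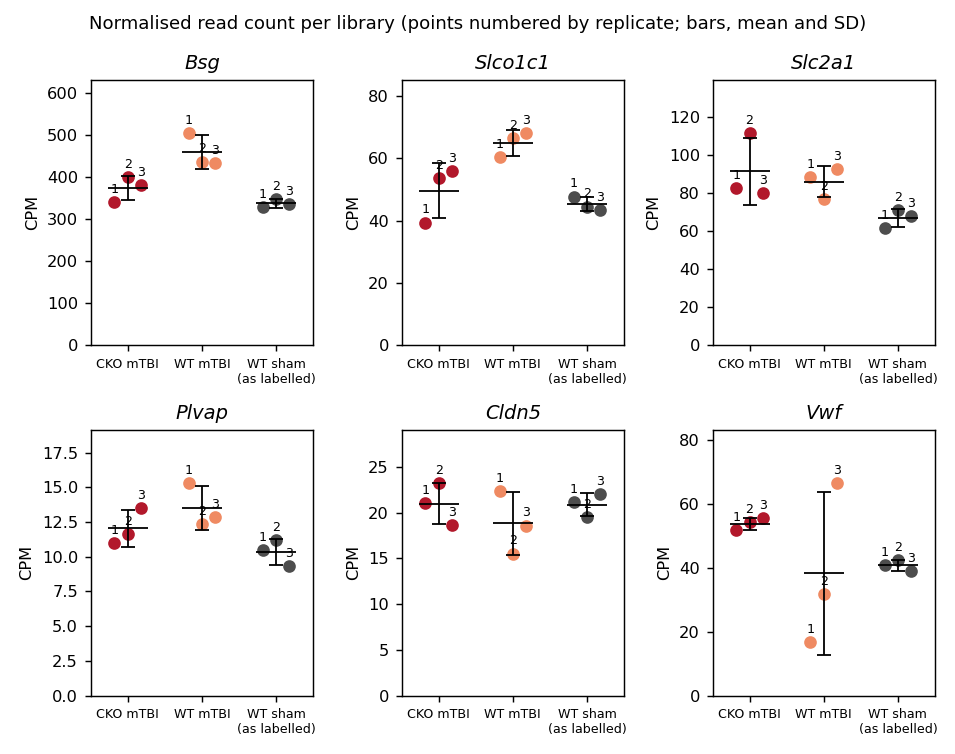
Level in CPM of Bsg, Slco1c1, Slc2a1, Plvap, Cldn5 and Vwf in each library, with points numbered by replicate and bars for the mean and SD of each group (n = 3). Bsg and Slco1c1 in WT mTBI lie above the other libraries, with WT mTBI means of 459 and 65.0 CPM, while Cldn5 overlaps between the groups.

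The junction genes carried no call: 5 of 6 changes were negative after injury, with a median log2 change of -0.10. Cldn5 had 22.4, 15.5 and 18.6 CPM in WT mTBI, against 21.1, 19.5 and 22.0 CPM in the libraries labelled sham. The ranges overlapped, with the highest of the 6 values in WT mTBI replicate 1 (log2 -0.15, 95% interval -0.44 to 0.15, adjusted p = 0.651). Tjp1 had 79.1, 108 and 121 CPM in WT mTBI, against 114, 118 and 112 CPM in the libraries labelled sham (log2 -0.16, SE 0.13, adjusted p = 0.604). WT mTBI replicate 1 was the low value there and replicate 3 the high one. Over the 20 alternatives the change of Tjp1 ran from -0.30 to 0.00 and that of Cldn5 from -0.29 to -0.04. Ocln, the tight junction protein occludin, had 13.9, 13.7 and 16.6 CPM in WT mTBI, against 13.3, 11.8 and 11.2 CPM in the libraries labelled sham, without overlap (log2 0.29, adjusted p = 0.429). Cdh5, the adherens junction cadherin VE-cadherin, stood at 8.57 CPM in WT mTBI replicate 1 and between 13.5 and 16.2 CPM in the other 8 libraries. Pecam1 and Esam, adhesion molecules of endothelial contacts, had log2 changes of -0.03 and -0.05 and their groups overlapped.

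Genes of activation and fenestration gave 2 of 3 values above sham without overlap, where 12.4% of all genes did so, and none passed. Plvap, which forms the diaphragms of fenestrae and is low in a mature barrier, had 15.3, 12.4 and 12.8 CPM in WT mTBI, against 10.5, 11.2 and 9.32 CPM in the libraries labelled sham (log2 0.38, SE 0.13, adjusted p = 0.246). Choroid plexus vessels are fenestrated, and the part of the choroid plexus in the Plvap value was not tested. In CKO mTBI replicate 1, with low choroid plexus markers, Plvap was at 11.01 CPM, inside the range of the libraries labelled sham. In CKO mTBI replicates 2 and 3, with choroid plexus markers summed to 3905 and 3121 CPM, it was at 11.6 and 13.5 CPM. WT mTBI replicate 1 held the highest Plvap value and the lowest choroid plexus sum of its group, 3303 CPM. Vcam1, a leukocyte adhesion receptor, had 30.5, 31.8 and 34.8 CPM in WT mTBI, against 25.3, 26.4 and 27.3 CPM in the libraries labelled sham (log2 0.30, SE 0.15, adjusted p = 0.410). Nos3, the endothelial nitric oxide synthase, overlapped, at 6.72 ± 1.73 CPM in WT mTBI and 7.35 ± 0.26 CPM in the libraries labelled sham.

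The receptors carried no call. Among the 7, 3 changes were positive and 4 negative, between -0.11 and 0.13 on the log2 scale, and none of the groups was apart. Flt1, the VEGF receptor VEGFR1, had 48.3, 63.8 and 66.8 CPM in WT mTBI, against 61.7, 66.4 and 64.8 CPM in the libraries labelled sham. Ptprb, the phosphatase VE-PTP, had 31.7, 51.1 and 62.5 CPM in WT mTBI, against 48.1, 48.1 and 49.4 CPM in the libraries labelled sham. In both, replicate 1 of WT mTBI was low and replicate 3 lay above all sham-labelled libraries. Kdr, the main signalling VEGF receptor, Tek and Tie1, the angiopoietin receptor TIE2 and its partner, Eng, the TGF-beta co-receptor endoglin, and Ramp2, a partner of the adrenomedullin receptor, had adjusted p of 0.723 to 0.996.

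Surface and secreted proteins gave 5 positive and 2 negative changes, from -0.17 to 0.19 on the log2 scale, and no call. Podxl, the sialomucin podocalyxin, had 33.6, 43.2 and 56.0 CPM in WT mTBI, against 48.1, 52.2 and 49.0 CPM in the libraries labelled sham. Itm2a had 49.8, 44.0 and 48.8 CPM in WT mTBI, against 46.8, 46.6 and 49.0 CPM in the libraries labelled sham. Both overlapped, as did Cd34, a sialomucin of vessels and progenitors, Emcn, Ly6c1 and Egfl7, a secreted vessel factor. Among the transcription factors of endothelial identity and barrier, Sox17 had 6.11, 6.04 and 6.85 CPM in WT mTBI, against 5.40, 5.15 and 4.82 CPM in the libraries labelled sham, without overlap (log2 0.31, SE 0.20, adjusted p = 0.518). Sox18 had 4.98, 4.56 and 6.10 CPM in WT mTBI, against 5.19, 6.04 and 5.97 CPM in the libraries labelled sham. Foxq1 was at 44 to 92 counts per library, and its log2 change of -0.26 had an SE of 0.31.

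The knockout was read from CKO mTBI against WT mTBI. None of the 34 genes passed edgeR's test, where 0.015% of all genes were called in either direction (0.00499% higher and 0.00998% lower), and none passed under any of the 20 alternatives, DESeq2 and limma voom included. At an unadjusted p under 0.05 there were 2 of 34 (5.88%, against 6.6% of all genes), Bsg and Slco1c1, both lower. The same 2 genes were the ones whose groups did not overlap (5.88% lower, against 4.86% of all genes). The 34 changes lay between -0.39 and 0.49 on the log2 scale. With the exception of Vwf, the 95% intervals stayed within 2-fold. Their spread was fitted over all 9 libraries, including those labelled sham, which are not in this comparison. The median coefficient of variation of the 34 genes was 4.28% in those, against 14.5% in CKO mTBI and 16.4% in WT mTBI. The intervals may therefore be too narrow for this comparison.

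Bsg had 342, 400 and 381 CPM in CKO mTBI, against 506, 438 and 435 CPM in WT mTBI (log2 -0.30, SE 0.08, 95% interval -0.48 to -0.11, adjusted p = 0.732). Every CKO mTBI library was below every WT mTBI library. Slco1c1 had 39.4, 53.7 and 55.8 CPM in CKO mTBI, against 60.3, 66.5 and 68.2 CPM in WT mTBI (log2 -0.39, SE 0.12, adjusted p = 0.732). The 13 choroid plexus markers were all negative in this comparison too, none of them called, and their part in these 2 values was not tested. Sox17 had 5.15, 3.38 and 6.14 CPM in CKO mTBI, against 6.11, 6.04 and 6.85 CPM in WT mTBI (log2 -0.37, SE 0.20, adjusted p = 0.739), with the lowest value in CKO mTBI replicate 2. The change was -0.16 for Bsg with replicates 1 of both injured groups left out, -0.25 for Slco1c1 without CKO mTBI replicate 1, and -0.16 for Sox17 without CKO mTBI replicate 2.

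All 6 junction genes had positive knockout changes, with a median of 0.17 on the log2 scale and no call. Esam had 14.7, 16.2 and 12.3 CPM in CKO mTBI, against 11.8, 11.2 and 13.2 CPM in WT mTBI (log2 0.26, SE 0.12, adjusted p = 0.732). Pecam1 had 22.4, 28.5 and 20.0 CPM in CKO mTBI, against 15.5, 20.2 and 22.7 CPM in WT mTBI (log2 0.28, SE 0.16, adjusted p = 0.739). Flt1 had 70.6, 76.5 and 65.1 CPM in CKO mTBI, against 48.3, 63.8 and 66.8 CPM in WT mTBI (log2 0.25, SE 0.11, adjusted p = 0.732). All 3 overlapped, and WT mTBI replicate 1 was the low library for Pecam1 and Flt1. With limma voom, which weights libraries by their quality, their changes were 0.07 and 0.10. Over all 34 genes 22 changes were positive (64.7%, against 50.2% of all genes), with a median of 0.08 on the log2 scale (0.00 over all genes). That median became -0.04 without WT mTBI replicate 1. Mural cell markers, led by Rgs5 and Vtn, had the same sign: 12 of 12 tested were positive, none called, and the summed level of the 13 was 321, 268 and 304 CPM in CKO mTBI, against 225, 265 and 291 CPM in WT mTBI. Their part in the endothelial values was not tested.

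The third comparison, CKO mTBI against the libraries labelled sham, shares its sham libraries with the injury comparison and its knockout libraries with the knockout comparison. None of the 34 genes passed edgeR's test, where 0.0699% of all genes were called (0.0499% higher and 0.02% lower). DESeq2 and limma voom called none either. Slc2a1 was called with no count filter (adjusted p = 0.0143) and Vwf with only the 6 libraries compared (adjusted p = 0.0245). In the main fit, 1 gene was under an unadjusted p of 0.05 (2.94%, against 7.2% of all genes). That gene was Slc2a1, with 82.5, 111 and 79.9 CPM in CKO mTBI, against 61.5, 70.9 and 68.0 CPM in the libraries labelled sham (log2 0.45, SE 0.13, 95% interval 0.17 to 0.73, adjusted p = 0.304). Every CKO mTBI library was above every library labelled sham, and replicate 2 was the highest, without which the log2 change was 0.28. Non-overlapping values above sham came from Slc2a1, Slc7a5 and Vwf (8.82%, against 8.75% of all genes), and below sham from Kdr and Abcg2 (5.88%, against 8.4% of all genes).

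Slc7a5 had 64.4, 61.9 and 73.1 CPM in CKO mTBI, against 59.0, 58.7 and 56.7 CPM in the libraries labelled sham (log2 0.19, SE 0.09, adjusted p = 0.735). Ocln had 11.7, 16.7 and 16.3 CPM in CKO mTBI, against 13.3, 11.8 and 11.2 CPM in the libraries labelled sham (log2 0.30, SE 0.15, adjusted p = 0.744), with overlap through replicate 1. On the negative side, Abcg2 had 15.0, 13.6 and 15.9 CPM in CKO mTBI, against 17.0, 16.2 and 16.8 CPM in the libraries labelled sham (log2 -0.17, SE 0.11, adjusted p = 0.889). Itm2a had 51.2, 25.4 and 42.7 CPM in CKO mTBI, against 46.8, 46.6 and 49.0 CPM in the libraries labelled sham. Tek had 15.4, 9.82 and 16.5 CPM in CKO mTBI, against 16.0, 15.8 and 15.4 CPM in the libraries labelled sham. For both Itm2a and Tek the low library was CKO mTBI replicate 2, and without it the log2 change was -0.02 for Itm2a and 0.01 for Tek, in place of -0.25 and -0.18.

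To set transporters against endothelial content, Bsg, Slc2a1, Slco1c1, Slc7a5, Mfsd2a and Abcb1a were divided by the sum of the 11 endothelial markers. This ratio was chosen after the values were seen and is given without a test. The sum was lowest in WT mTBI replicate 1, at 236 CPM, the library with the highest ratios of Bsg, Slc2a1, Slco1c1 and Mfsd2a. Levels in that library fell with transcript length (rank correlation -0.47 across the 34 genes, described below). Vwf and Flt1, the longest of the markers, were at 16.7 and 48.3 CPM there, against sham means of 40.7 and 64.3 CPM. The markers Cldn5, Ly6c1 and Tie1 were above their sham means. The part of transcript length in the low sum and the high ratios was not tested. For Slc2a1 the ratio was 0.254, 0.336 and 0.263 in CKO mTBI and 0.375, 0.286 and 0.272 in WT mTBI, against 0.217, 0.241 and 0.233 in the libraries labelled sham. All 6 injured libraries lay above the 3 labelled sham. For Bsg it was 1.05, 1.21 and 1.26 in CKO mTBI and 2.14, 1.64 and 1.28 in WT mTBI, against 1.16, 1.18 and 1.15 in the libraries labelled sham. For Abcb1a it was 0.101, 0.0722 and 0.103 in CKO mTBI and 0.0938, 0.0955 and 0.0926 in WT mTBI, against 0.102, 0.106 and 0.1003 in the libraries labelled sham. For Slco1c1 it was 0.121, 0.162 and 0.184 in CKO mTBI and 0.256, 0.248 and 0.200 in WT mTBI, against 0.169, 0.151 and 0.149 in the libraries labelled sham. The ratios of Slc7a5 and Mfsd2a overlapped between the groups.

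**Figure D3:**
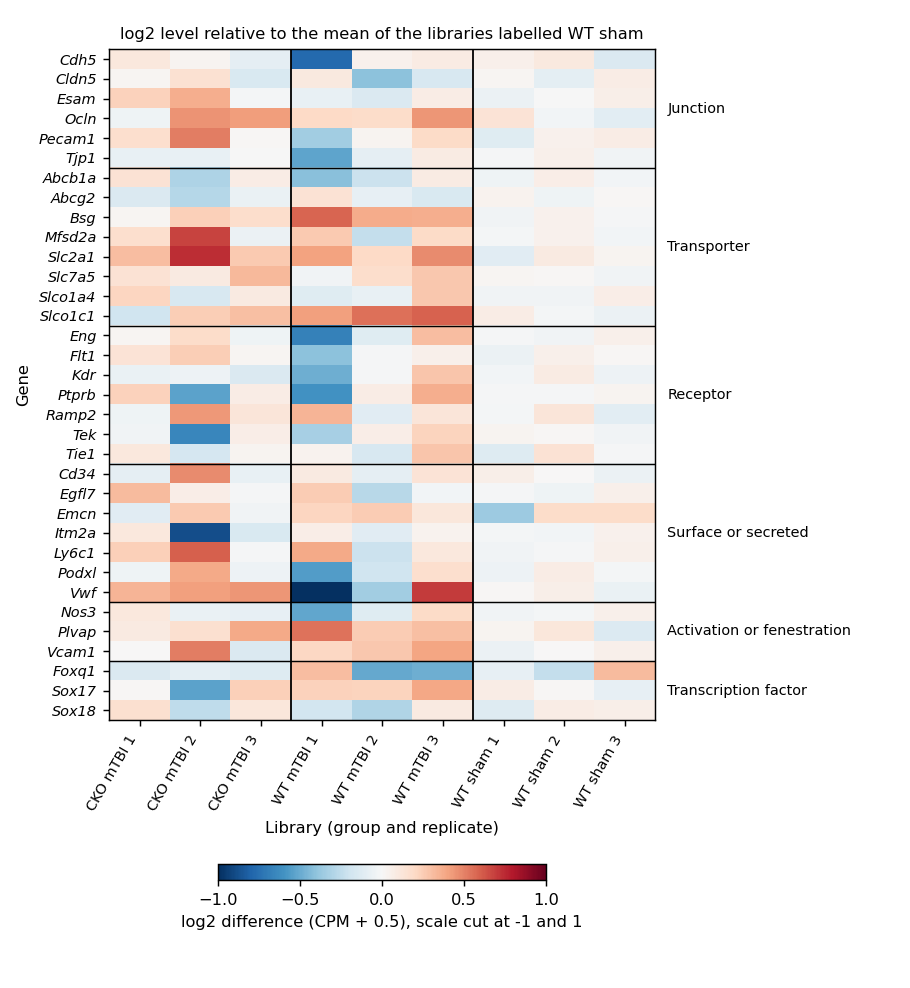
log2 level of each of the 34 genes in each library (columns, CKO mTBI, WT mTBI and WT sham replicates) relative to the mean of the libraries labelled WT sham, from CPM + 0.5, with colours cut at -1 and 1 and genes grouped by role. The sham columns are nearly blank, WT mTBI replicate 1 is low for Vwf, Cdh5, Eng and Ptprb, WT mTBI replicate 3 is high for most genes, and CKO mTBI replicate 2 is high for Slc2a1 and Mfsd2a and low for Itm2a and Tek.

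Libraries of the same injured group differed among themselves. The median coefficient of variation of the 34 genes was 14.5% in CKO mTBI and 16.4% in WT mTBI, against 4.28% in the libraries labelled sham (11.5%, 15.6% and 6.19% over all genes in the same order of groups). CKO mTBI replicate 2 gave the highest value of the 9 libraries for 13 of the 34 genes (38.2%, against 14.1% of all genes) and WT mTBI replicate 3 for 11 (32.4%, against 10.7%). The lowest value came from WT mTBI replicate 1 for 12 genes (35.3%, against 24.6% of all genes) and from WT mTBI replicate 2 for 8 (23.5%, against 8.84%).

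Vwf, which encodes the clotting protein von Willebrand factor, had the widest spread and was singled out after its values were seen. It had 51.7, 54.2 and 55.5 CPM in CKO mTBI, 16.7, 31.9 and 66.5 CPM in WT mTBI, and 41.0, 42.3 and 38.9 CPM in the libraries labelled sham. The WT mTBI libraries enclosed all the others. The log2 changes were -0.09 for WT mTBI against sham, 0.49 for CKO mTBI against WT mTBI and 0.40 for CKO mTBI against sham, with an SE of 0.35 each and adjusted p of 0.935, 0.745 and 0.987. These SEs come from a single fit to all 9 libraries, so the spread of WT mTBI (SD 25.5 CPM) enters every comparison. The CKO mTBI and sham-labelled libraries had SDs of 1.91 and 1.74 CPM and did not overlap. With only those 6 libraries in the fit, Vwf was called higher in CKO mTBI (adjusted p = 0.0245). Without WT mTBI replicate 1 the log2 changes were 0.27 for WT mTBI against sham and 0.13 for CKO mTBI against WT mTBI, and without WT mTBI replicate 3 they were -0.75 and 1.15. Mfsd2a was also spread within its groups, at 23.2, 33.4 and 19.8 CPM in CKO mTBI, 24.9, 17.5 and 23.7 CPM in WT mTBI, and 20.4, 21.3 and 20.3 CPM in the libraries labelled sham.

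The deviations of WT mTBI replicate 1 varied with transcript length. Across the 34 genes, the rank correlation of exon length with the log2 level relative to sham was -0.47 in that library (-0.29 across 20014 genes), so that long transcripts such as Vwf and Ptprb were low and short ones such as Bsg and Plvap high. In CKO mTBI replicate 2 it was -0.07 (-0.04 across all genes), and in WT mTBI replicate 3 it was 0.19 (-0.01 across all genes). These are descriptions across genes of single libraries, which share their library and its depth, and the part of RNA quality in them was not tested.

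**Figure D4:**
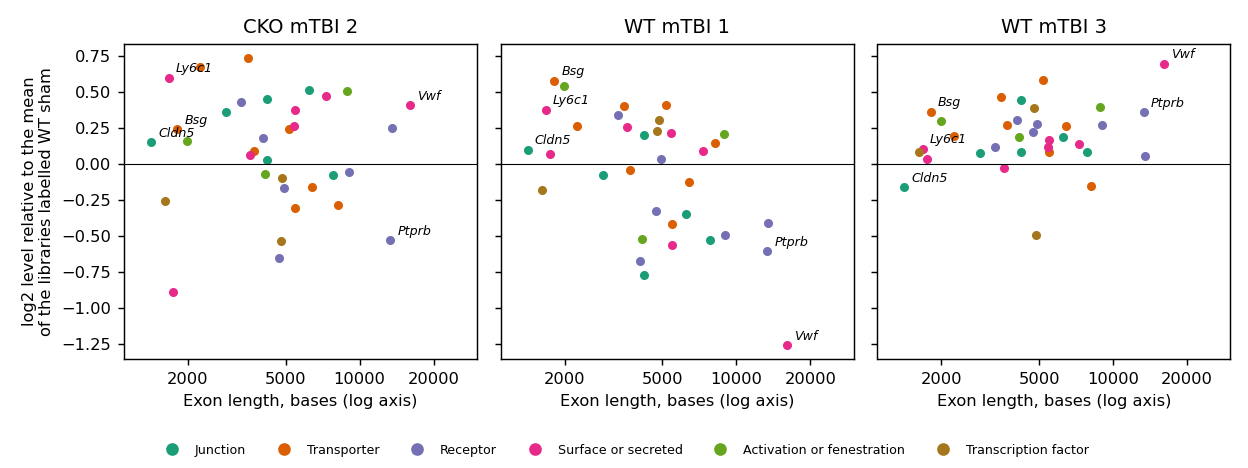
log2 level of each of the 34 genes relative to the mean of the libraries labelled WT sham (y axis) against exon length in bases (x axis, log) in CKO mTBI replicate 2, WT mTBI replicate 1 and WT mTBI replicate 3, coloured by role. Points fall towards long transcripts in WT mTBI replicate 1 (rank correlation -0.47) and not in WT mTBI replicate 3 (0.19).

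Other genes of the barrier were taken from 10 lists of related genes, and none of the listed genes passed edgeR's test in any of the 3 comparisons. Among 14 further junction genes, 3 were under an unadjusted p of 0.05 after injury, all higher (21.4%, against 13.2% of all genes). Cgnl1, the junction protein paracingulin, had 22.2, 44.4 and 36.4 CPM in CKO mTBI, 28.3, 49.7 and 50.8 CPM in WT mTBI, and 18.6, 19.1 and 20.7 CPM in the libraries labelled sham, and all 6 injured libraries lay above the 3 labelled sham (WT mTBI against sham, log2 1.14, SE 0.25, adjusted p = 0.0782). Its low injured values were in CKO mTBI replicate 1 and WT mTBI replicate 1. F11r, the junctional adhesion molecule JAM-A, had a log2 change of 0.45 after injury (adjusted p = 0.343).

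In the Wnt list of 19 genes, 2 were under an unadjusted p of 0.05 after injury (10.5%, against 13.2% of all genes) and 8 in CKO mTBI against sham (42.1%, against 7.2% of all genes). Of these, 5 were higher (Fzd4, Lef1, Reck, Tcf7l2 and Znrf3) and 3 lower (Ndp, Wnt7a and Wnt7b). Tcf7l2 had 32.1, 9.75 and 11.7 CPM in CKO mTBI, against 6.31, 5.32 and 5.03 CPM in the libraries labelled sham. Lef1 had 9.05, 5.55 and 5.06 CPM, against 3.30, 3.86 and 3.19 CPM. Both were highest in CKO mTBI replicate 1, and the cells behind them were not tested. Fzd4, the receptor of the barrier-inducing ligand norrin, had 14.2, 22.4 and 22.9 CPM in CKO mTBI, 17.3, 23.1 and 25.4 CPM in WT mTBI, and 13.1, 12.9 and 10.6 CPM in the libraries labelled sham (WT mTBI against sham, log2 0.85, SE 0.19, adjusted p = 0.0852). Wnt7b, a ligand that neurons and glia supply to the endothelium, had 41.0, 44.9 and 39.1 CPM in CKO mTBI, 37.1, 41.0 and 36.1 CPM in WT mTBI, and 49.1, 49.0 and 48.2 CPM in the libraries labelled sham (WT mTBI against sham, log2 -0.36, SE 0.08, adjusted p = 0.0809). For both genes the 6 injured libraries and the 3 labelled sham did not overlap. CKO mTBI replicate 1, with low choroid plexus markers, held the lowest injured values of Cgnl1 and Fzd4, still above sham, and the part of choroid plexus RNA in them was not tested. Ndp, which encodes norrin, and Reck, a cofactor of the Wnt7 receptor complex, had log2 changes of -0.35 and 0.28 in CKO mTBI against WT mTBI, both at an adjusted p of 0.732.

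Among 17 endothelial transcription factors, Klf2, a factor induced by blood flow, had 7.24, 9.03 and 7.11 CPM in CKO mTBI, 8.77, 5.38 and 7.20 CPM in WT mTBI, and 4.83, 3.14 and 3.74 CPM in the libraries labelled sham. All injured libraries lay above the sham-labelled ones, including CKO mTBI replicate 1, and the adjusted p was 0.108 for WT mTBI (log2 0.86) and 0.169 for CKO mTBI (log2 1.00). In the list of 20 further transporters, Slc5a6, a vitamin transporter, had a log2 change of 0.46 in WT mTBI against sham (adjusted p = 0.0886). Among caveola genes, Cavin2 had a log2 change of 0.77 after injury (adjusted p = 0.142). Among 12 tested genes of the VEGF and angiopoietin axis, Vegfb, a ligand of FLT1, had a log2 change of 0.35 and Angpt1, the ligand that activates TEK, one of -0.49 (adjusted p = 0.245 and 0.246). Of 15 further pan-endothelial genes, 13 had positive knockout changes, with a median of 0.19 on the log2 scale and no call.

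In the list of 7 leukocyte adhesion genes, 1 was under an unadjusted p of 0.05 in WT mTBI against sham (14.3%, against 13.2% of all genes) and 3 in CKO mTBI against WT mTBI (42.9%, against 6.6%). Sele, the endothelial E-selectin, had 0.157, 5.19 and 0.103 CPM in CKO mTBI, 0, 0.051 and 0.0996 CPM in WT mTBI, and 0.467, 0.551 and 0.262 CPM in the libraries labelled sham. Selp, P-selectin, had 0.183, 5.37 and 0.205 CPM in CKO mTBI, 0.0513, 0.0510 and 0.374 CPM in WT mTBI, and 0.0779, 0.276 and 0.419 CPM in the libraries labelled sham. CKO mTBI replicate 2 was the high library in both, and neither gene passed in CKO mTBI against WT mTBI (adjusted p = 0.732). The WT mTBI libraries lay below the sham-labelled ones for Sele, but on few counts: 0, 2 and 4 in WT mTBI, against 18, 20 and 10. Alcam, an adhesion molecule of endothelium and neurons, had 129, 128 and 116 CPM in CKO mTBI, 120, 121 and 118 CPM in WT mTBI, and 143, 140 and 133 CPM in the libraries labelled sham, with all 6 injured libraries below the 3 labelled sham (WT mTBI against sham, log2 -0.21, adjusted p = 0.233).

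**Figure D5:**
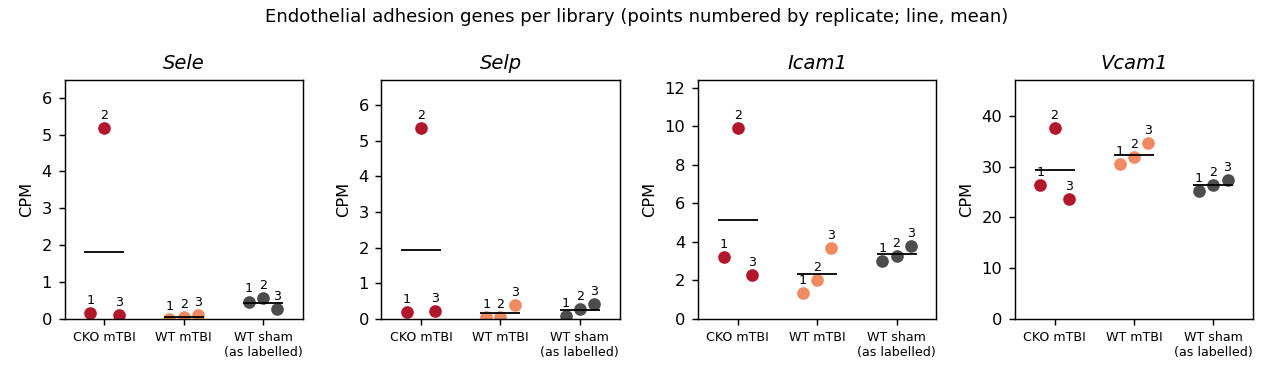
Level in CPM of Sele, Selp, Icam1 and Vcam1 in each library, with points numbered by replicate and a line at the mean of each group (n = 3). CKO mTBI replicate 2 stands above the other 8 libraries for Sele (5.19 CPM) and Selp (5.37 CPM).

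Some of the levels are uncertain for reasons of counting. Ly6c1, Abcb1a and Slco1a4 belong to families of related genes, and whether reads were split between relatives was not tested. The exons of Eng overlap those of Fpgs, those of Ramp2 overlap Vps25, those of Egfl7 overlap Agpat2, and those of Nos3 overlap Atg9b, and the strand used in counting is not given in the sources used here.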

How the data were processed

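Per the submitters' processing notes, FastQC, Trim Galore, HISAT2, SAMtools, featureCounts 2.0.6 and MultiQC were used with build mm10. The deposited values are raw counts per gene by the authors, per the file headers made by featureCounts with the annotation of Ensembl release 98. Both mates of a read pair appear to be counted singly, because the libraries hold a median of 680 genes with 1 count and 2798 with 2 counts. The strand setting is not given in the sources used here.

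Symbols came from GENCODE release M21, which matched 55240 of 55421 gene IDs. From the counts, edgeR 4.0.16 in R 4.3.3 (filterByExpr, TMM scaling, glmQLFit and glmQLFTest, two-sided) was fitted to all 9 libraries with group means. Benjamini-Hochberg adjustment ran over all 20032 genes and calls were made at an adjusted p under 0.05. The steps were tested on simulated data, and no result of that test for groups of unequal spread, as found here, is given. The fit had 6 residual degrees of freedom. CPM used TMM-scaled totals. TPM used exon lengths. Log2 levels relative to sham used CPM + 0.5. Intervals at 95% are for single genes, unadjusted, and use the spread fitted over all 9 libraries. The study's design text gives 3 mice per group, and p-values measure only the spread between these libraries, which may be technical.

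The 34 genes and the lists were chosen with earlier results of these data known. Per-library values are given for called genes, for the 3 genes of smallest p per direction in each comparison, for the 2 of highest mean CPM in each role, and for others as stated. Alternatives of 12 kinds covered scaling, DESeq2 1.42.0, voom (limma 3.58.1), count filters, libraries in the fit, a replicate block, halved counts, summed sham libraries and libraries left out. Some genes of the lists are not reported here.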

Additional observations from a re-analysis of the deposited data

How the results depend on the processing

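The count of members called after injury (WT mTBI against libraries labelled sham, 1 gene) was 0 with RLE scaling, a stricter count filter, the replicate block or the 3 sham libraries summed to 1 sample. It was 2 (Bsg and Slco1c1) with DESeq2, limma voom, no count filter, only the 6 libraries compared, or WT mTBI replicate 1 and CKO mTBI replicate 1 left out together. It ranged from 0 to 2 with 1 library left out, at 2 without CKO mTBI replicate 1 and at 0 without CKO mTBI replicate 3, WT mTBI replicate 2 or 3, or any 1 of the libraries labelled sham. For CKO mTBI against sham, 1 member was called with no count filter (Slc2a1, adjusted p = 0.0143) and 1 with only the 6 libraries compared (Vwf, adjusted p = 0.0245), against 0 otherwise. For CKO mTBI against WT mTBI the count was 0 under all 20 alternatives.

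Deviations of same-numbered libraries had correlations of -0.095 to 0.074, inside the range of -0.127 to 0.153 of differently numbered ones. With 3 libraries per group, these values cannot tell whether a number marks a shared batch or day. With the replicate block, the adjusted p of Bsg after injury was 0.0803. The change of Vwf after injury turned to 0.061 with limma voom and 0.27 with both replicates 1 left out, and lay between -0.75 and 0.27 with 1 library left out. Without 1 library the knockout change of Slc2a1 lay between -0.078 and 0.18, and the change of Tek in CKO mTBI against sham between -0.32 and 0.013. Without CKO mTBI replicate 2 these were -0.078 and 0.013. The median knockout change of the members turned to -0.02 with both replicates 1 left out. Over all genes, calls ranged from 1 to 722 after injury (102 as reported), from 1 to 68 for the knockout (3) and from 0 to 387 for CKO mTBI against sham (14). Except where the alternative uses fewer libraries or tests other genes, the cause was not tested. Foxq1, at 44 to 92 counts, was the member most limited by depth.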

Other observations

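The high selectin values of CKO mTBI replicate 2 led to a list of 19 genes of acute endothelial activation and inflammation, written after values had been seen and given without a test. That library had the highest value of the 9 for 16 of the 19, and for 10 it was over 2 times the highest other library. Over all genes tested it was highest for 14.1%, and no share of all genes is given for the criterion of over 2 times. Sele and Selp are themselves among the 19, and values of Icam1, Vcam1, Ackr1 and Angpt2 had also been computed before, so these counts were partly fixed in advance. Ccl2, Csf3 and Ch25h, which are among the 10, had only 34, 51 and 88 counts in CKO mTBI replicate 2. Lcn2, the iron-binding acute-phase protein lipocalin 2, was at 133 CPM there and at most at 5.95 CPM in the other 8 libraries. Cxcl1, a neutrophil chemokine, was at 4.35 CPM and at most at 0.606 CPM elsewhere. Icam1, a leukocyte adhesion receptor, was at 9.92 CPM, against at most 3.80 CPM. Lrg1, a secreted glycoprotein of vessels and of the acute phase, was at 12.6 CPM, against at most 5.68 CPM, and Socs3, a cytokine feedback inhibitor, at 5.40 CPM, against at most 2.33 CPM. Il6 had no count in that library, and Tnfaip3 and Ptx3 were not highest there. Among the members, Vcam1 was highest in the same library, at 37.8 CPM, as were Slc2a1 and Mfsd2a, at 111 and 33.4 CPM.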
